A study of Mus musculus with 12 samples.

Results

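Surface proteins of the pre-B cell were followed by the mRNA of 10 listed genes: Enpep, Ptprc, Cd38, Cd2, Cd244a, Cd5, Cr2, Cd24a, Cd37 and Spn. The members are the probe sets that the array's annotation assigns to these symbols. They came to 15 probe sets of 45101 on the array, and 9 of the 10 genes were measured among 18193 genes with a probe set. Cd38, the NAD-consuming ectoenzyme, was not analysed here because no probe set carried its name in the annotation used. All 9 measured genes were among the 11696 genes that passed the filter on low values. The members were chosen by their log2 signals over the 6 groups of these same 12 arrays, so their values are given as a description and without a test.

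Total RNA was hybridised to mouse one-colour arrays in 6 groups of 2 samples. C10, a mouse B cell line that carries an inducible form of the transcription factor C/EBPa, was treated either with ethanol, the vehicle, or with beta estradiol for 3, 12, 24 or 48 h. HAFTL, a mouse line obtained from fetal liver and transformed by the Ha-ras oncogene, received beta estradiol. No time is stated for vehicle C10 or HAFTL, and the sources used here do not give the promoter, the receptor fusion or the clonality of the C10 construct. All C10 groups carry the inducible factor, so vehicle C10 is not a line without it. HAFTL and vehicle C10 differ in line and in estradiol, which cannot be told apart. Nothing in the labels states that the 2 samples of a group were separate cultures, so p-values rest on sample-to-sample spread that could be technical.

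Pre-B cells are told from other blood cells by combinations of surface proteins. Some are enzymes facing outward, such as aminopeptidase A, the BP-1 antigen encoded by Enpep, and the phosphatase CD45 encoded by Ptprc. Others bind partner proteins on neighbouring cells (CD2 and CD244), lower antigen receptor signalling (CD5), bind complement fragments (CR2) or form scaffolds and glycan shields in the membrane (CD37, CD24 and CD43, the product of Spn). C/EBPa is a myeloid regulator, and its forced activity in B lineage cells is a known way to turn them toward macrophages.

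Levels are log2 of the deposited signal after quantile normalisation, and the filter level of 6.22, a signal of 74.6, was the median of all values. A group with both arrays under that level is given as at least so many fold lower, measured to the filter level. A gene given as at least so many fold higher had both vehicle arrays under that level. Such a gene passed the filter through groups where it was high, so its call, also within list counts, is given as a description. Levels of different probe sets cannot be set against each other. Errors of log2 differences are standard errors of the limma fit to all 12 arrays, with n = 2 arrays per group. The spread behind them is pooled over the 6 groups, also those under the filter level or at the floor. For genes with such groups it need not measure the spread of the 2 groups compared. Every time was compared with the same vehicle arrays, so these comparisons are not independent. In RNA from whole cultures, fewer cells of a type and less RNA per cell cannot be told apart.

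The 2 arrays of a group correlated at 0.976 to 0.980 (Pearson, across genes), and the median deposited signal per array was 68.5 to 85.0. The ratio of the 5' to the 3' probe set of Actb was 0.582 to 0.638 in vehicle C10, 0.691 to 0.740 in HAFTL and 0.746 to 0.848 in C10 with estradiol. The log2 signal of the bacterial spike-in probe sets was 8.19 to 8.60 in vehicle C10 and HAFTL and 7.40 to 8.39 in C10 with estradiol. Both ends of the latter range were the 2 arrays of the 48 h group (8.39 and 7.40). Scaling to the spike-in thus adds spread between arrays of the same group. A call lost with that scaling can come from this spread or from a smaller difference, which were not told apart. Scaling the arrays to that spike-in shifted the median of all genes by 0.70, 0.73, 0.31 and 0.57 at 3, 12, 24 and 48 h and by 0.10 in HAFTL, and median centring shifted it by -0.11 in HAFTL. The part of these differences in the results was not tested. Counts with spike-in scaling are given with those of the gene lists, as calls of the same limma test. The shares of all genes called with that scaling were not counted, so all shares given beside counts are those after quantile normalisation. With spike-in scaling the median of all genes was 0.63, 0.65, 0.18 and 0.38 at 3, 12, 24 and 48 h and 0.10 in HAFTL, and list counts move with it. Markers of the B lineage (6 genes measured) summed to a signal of 86591 to 87738 in vehicle C10 and 15014 to 16243 at 48 h, and macrophage markers (6 genes) to 779 to 871 in vehicle C10 and 98915 to 99255 at 48 h.

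Relative to vehicle C10, 7 of the 9 genes were lower with non-overlapping arrays from 12 h on, and Ptprc and Spn were higher. At 3 h, 8 of 9 genes were lower, where 40.7% of all genes tested were, and only Ptprc was higher, where 33.7% were. At 12 h, 7 were lower and 2 higher, against 42.7% and 34.0% of all genes. The same split of 7 and 2 was found at 24 h, against 45.2% and 34.2%, and at 48 h, against 47.5% and 32.8%. The members' median log2 difference was -1.37, -3.64, -2.89 and -3.02 at the 4 times, beside -0.06, -0.08, -0.13 and -0.19 over all genes tested. These counts restate the choice of members. With spike-in scaling only 5 of the 9 genes were lower at 3 h (Enpep, Cr2, Cd2, Cd5 and Cd244a), and Cd24a, Cd37 and Spn overlapped vehicle C10.

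**Figure D1:**
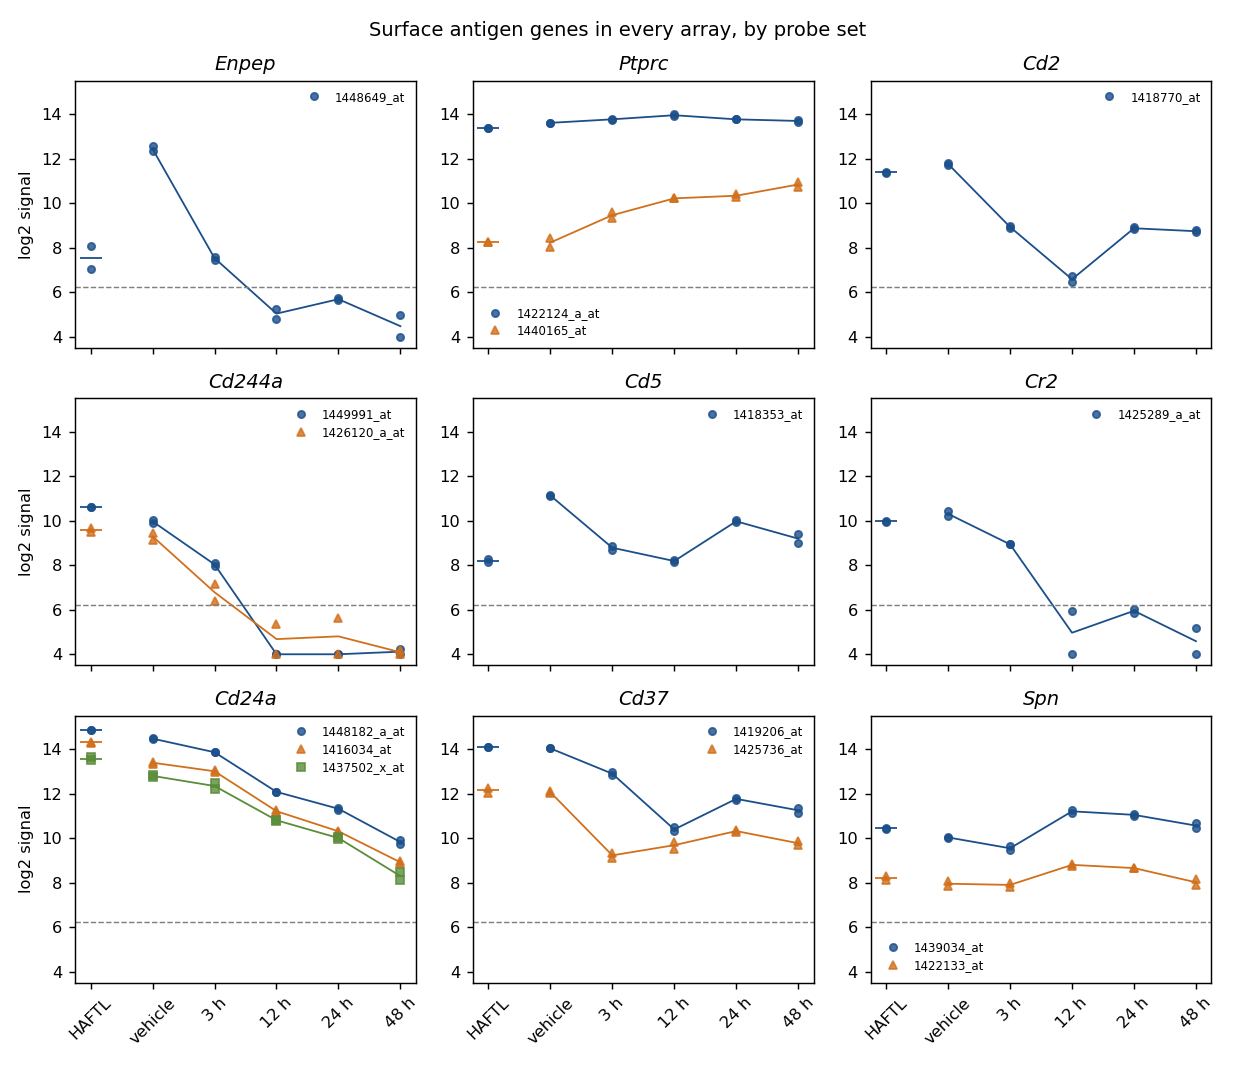
Log2 signal (y axis) of the 15 probe sets of the 9 measured surface antigen genes in each array of HAFTL with estradiol, vehicle C10 and C10 after 3, 12, 24 and 48 h (x axis, evenly spaced), with points for arrays, lines through the C10 group means, a short bar for the HAFTL mean, colours for probe sets and a dashed line at the filter level of 6.22. Enpep dropped from 12.56 and 12.33 in vehicle C10 to 7.47 and 7.61 at 3 h and lay under the dashed line from 12 h on, while the brighter Ptprc probe set stayed between 13.40 and 14.0 on every array.

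Promoter windows are shown for 5 members picked because they hold matches to some of the letters below. The letters do not sort the genes into groups, since Cd244a and Cd5 also share the Ets letters, and windows without a match are not shown. Of the 10 genes, 8 were found in the RefSeq promoter table for GRCm38.p6, which lists 250 bases before and 50 after the start, and Cd2 and Cd24a were not. Capitals mark matches on either strand to the letters TTGCNNAA (C/EBP), CCCNNGGG (EBF), CAGGTG (E proteins), GAGGAA (Ets factors, including PU.1) or TGTGGT (Runx). Enpep (chr3:129332700-129332999, minus strand) and Cd244a (chr1:171558943-171559242, plus strand) held the C/EBP letters, Cr2 (chr1:195176670-195176969, minus strand) and Cd5 (chr19:10738925-10739224, minus strand) the E protein letters, and Spn (chr7:127137774-127138073, minus strand) the EBF letters.
Enpep: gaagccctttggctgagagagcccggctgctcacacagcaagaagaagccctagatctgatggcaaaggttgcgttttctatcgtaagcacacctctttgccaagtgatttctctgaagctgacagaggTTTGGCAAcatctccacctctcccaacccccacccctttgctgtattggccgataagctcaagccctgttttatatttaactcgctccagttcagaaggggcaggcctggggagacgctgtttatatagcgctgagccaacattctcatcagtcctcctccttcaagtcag
Cd244a: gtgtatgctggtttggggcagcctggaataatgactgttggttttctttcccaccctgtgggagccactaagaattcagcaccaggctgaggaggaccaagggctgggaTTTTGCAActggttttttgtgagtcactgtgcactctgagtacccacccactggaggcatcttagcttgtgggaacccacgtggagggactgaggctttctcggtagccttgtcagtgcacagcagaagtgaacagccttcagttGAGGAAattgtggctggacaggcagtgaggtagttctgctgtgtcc
Cr2: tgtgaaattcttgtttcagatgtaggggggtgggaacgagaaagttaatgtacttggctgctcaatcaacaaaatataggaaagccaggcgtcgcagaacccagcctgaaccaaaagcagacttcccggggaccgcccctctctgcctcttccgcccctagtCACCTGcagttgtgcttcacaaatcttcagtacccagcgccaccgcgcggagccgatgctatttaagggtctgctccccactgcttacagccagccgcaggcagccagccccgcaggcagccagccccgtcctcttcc
Cd5: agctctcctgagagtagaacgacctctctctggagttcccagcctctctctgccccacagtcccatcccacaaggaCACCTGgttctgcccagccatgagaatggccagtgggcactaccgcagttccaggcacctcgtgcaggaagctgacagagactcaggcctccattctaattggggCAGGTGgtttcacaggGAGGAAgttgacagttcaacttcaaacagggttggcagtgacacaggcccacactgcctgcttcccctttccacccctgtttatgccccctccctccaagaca
Spn: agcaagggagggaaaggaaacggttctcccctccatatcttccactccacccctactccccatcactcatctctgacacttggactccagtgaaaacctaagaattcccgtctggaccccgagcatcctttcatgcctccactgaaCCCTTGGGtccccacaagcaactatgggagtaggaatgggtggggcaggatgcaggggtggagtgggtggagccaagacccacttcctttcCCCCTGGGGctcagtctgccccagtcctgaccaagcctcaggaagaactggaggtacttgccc

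The C/EBP letters began at position -121 from the start site of Enpep and at -141 of Cd244a, and were absent from the windows of the other 6 genes. Among all 32851 promoter windows of the same length, 10.8% held them. The E protein letters stood in the windows of Cr2, where they began at -88, of Cd5 and of Cd37, beside 20.2% of all windows. The Ets letters were found in Cd37, Cd5, Cd244a and 1 of 2 Ptprc windows, beside 28.3% of all windows. The EBF letters were found in Spn, with overlapping matches next to the start site, beside 13.7% of all windows. None of the 9 windows held the Runx letters, which 16.8% of all windows held. A match describes letters and not a bound site, and a missing match says only that these letters are not in this window.

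Enpep encodes aminopeptidase A, which cuts acidic residues from the N terminus of peptides such as angiotensin II, and is the BP-1 antigen used to stage early B cells. Its log2 signal was 12.56 and 12.33 in vehicle C10 and 8.07 and 7.05 in HAFTL. The 3 h arrays of C10 with estradiol read 7.47 and 7.61, the 12 h arrays 4.83 and 5.27, the 24 h arrays 5.74 and 5.65, and the 48 h arrays 4.97 and 4.0, where 4.0 is the floor. Both vehicle arrays were above all other arrays, and HAFTL overlapped C10 at 3 h. The difference from vehicle C10 was -4.91 ± 0.39 at 3 h, a 30.0-fold lower signal, and -4.89 ± 0.39 in HAFTL, a 29.6-fold lower signal. From 12 to 48 h Enpep was at least 74.9-fold lower, and values under the filter level have no order among themselves. The 3 h difference was 78.8% of the distance to the filter level. Counted from the lowest difference, Enpep ranked 7 of 11696 genes at 3 h, 1 at 48 h and 3 in HAFTL.

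The related M1 aminopeptidases and genes of the angiotensin system, 8 genes tested, had calls in both directions. At 3 h these were near the shares of all genes. At 3 h 2 passed the test upward and 2 downward, with a list median of 0.13, and 27.3% of all genes tested fell at that time and 20.9% rose. At 48 h 3 rose and 4 fell, beside 24.2% and 38.2% of all genes. With spike-in scaling 2 rose and 0 fell at 3 h in limma (also 2 and 0 at an unadjusted p under 0.05), and 2 rose and 1 fell at 48 h. Dpp4, the surface dipeptidase CD26, was on this list but is not an M1 aminopeptidase. Dpp4 fell by 1.05 ± 0.12 at 3 h, fell by 3.11 ± 0.12 at 12 h and fell by 1.97 ± 0.12 at 48 h, and the 3 h call was lost with spike-in scaling. Erap1, the aminopeptidase of the endoplasmic reticulum, fell by 0.74 ± 0.09 at 48 h, a call lost with spike-in scaling. Npepps, the puromycin-sensitive aminopeptidase of the cytosol, rose at every time and by 1.87 ± 0.14 at 48 h, and Rnpep, aminopeptidase B, rose by 1.70 ± 0.20 at 48 h. Elovl6, a fatty acid elongase and the next gene after Enpep on chromosome 3, fell by 0.84 ± 0.10 at 3 h and by 1.43 ± 0.10 at 48 h (limma, Benjamini-Hochberg adjusted p = 7.5e-06), and with spike-in scaling differed by -0.04 at 3 h and -0.86 at 48 h without passing the test.

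Ptprc encodes CD45, the receptor phosphatase that keeps Src family kinases ready to signal and is found on nearly all nucleated blood cells. Its brighter probe set read 13.61 and 13.63 in vehicle C10, 13.41 and 13.40 in HAFTL, and no lower than 13.66 and no higher than 14.0 across the 8 estradiol-treated C10 arrays. The differences from vehicle C10 were 0.16, 0.34, 0.16 and 0.08 at 3, 12, 24 and 48 h and -0.22 in HAFTL, each ± 0.07, so the range over groups was 0.56. With spike-in scaling the 4 differences were larger, at 1.05, 1.25, 0.71 and 0.88, and HAFTL differed by -0.17. The dimmer probe set read 8.42 and 8.06 in vehicle C10 and 8.27 and 8.28 in HAFTL, which overlapped. The 3 h arrays read 9.33 and 9.62, the 12 h arrays 10.22 and 10.23, the 24 h arrays 10.28 and 10.41, and the 48 h arrays 10.94 and 10.76. Its 48 h difference was 2.61 ± 0.15, or 6.10-fold. The 2 probe sets thus had the same direction at each time and very unequal sizes. The annotation does not say which CD45 isoforms either reads.

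Genes that act with CD45 moved in both directions. Ptprcap, which encodes a small protein that associates with CD45 in lymphocytes, read 12.52 and 12.72 in vehicle C10 and 8.71 and 8.47 at 48 h. It fell by 0.96 ± 0.12 at 3 h and fell by 4.03 ± 0.12 at 48 h (limma, Benjamini-Hochberg adjusted p = 1.4e-07), with no overlap of the arrays at either time. With spike-in scaling its 3 h difference was -0.10 and did not pass the test. Ptpn22, a phosphatase that restrains antigen receptor signalling, was at least 18.01-fold lower at 12 h. Ptpre, another receptor phosphatase, was at least 57.7-fold higher at 48 h and Src, a kinase that CD45 can regulate, at least 5.02-fold higher. Among the 15 tested genes of receptor phosphatases and Src family regulation, 2 rose and 4 fell at 3 h and 9 rose and 4 fell at 24 h, with list medians of -0.04 and 0.28. Of all genes, 20.9% rose and 27.3% fell at 3 h and 24.2% and 33.3% at 24 h. With spike-in scaling 2 of the list rose and 0 fell at 3 h in limma (2 and 1 at an unadjusted p under 0.05), and 4 rose and 2 fell at 24 h.

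Cd2 encodes an adhesion receptor of the immunoglobulin superfamily that is carried by T cells and, in the mouse, by B lineage cells. Its log2 signal was 11.73 and 11.82 in vehicle C10 and 11.43 and 11.38 in HAFTL. After 3 h it was 8.88 and 9.0, after 12 h 6.46 and 6.72, after 24 h 8.85 and 8.92, and after 48 h 8.80 and 8.70. The 12 h arrays were below all others, and the 24 h arrays overlapped the 3 h arrays. The signal was 7.12-fold lower at 3 h (-2.83 ± 0.10) and 36.3-fold lower at 12 h (-5.18 ± 0.10). It was 7.41-fold lower after 24 h and 8.12-fold lower after 48 h. Between 12 and 24 h it was higher by 2.29, or 4.90-fold, without reaching the vehicle level. HAFTL differed by -0.37, and Cd2 overlapped between these groups with spike-in scaling.

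Cd244a encodes 2B4, a receptor of the SLAM family that binds CD48 and is best known from natural killer cells. Its brighter probe set read 10.05 and 9.89 in vehicle C10, 10.60 and 10.61 in HAFTL and 7.97 and 8.11 at 3 h. All arrays from 12 h on lay at 4.0 to 4.24, under the filter level. The difference was -1.93 ± 0.10 at 3 h, and the signal was at least 13.4-fold lower from 12 to 48 h. This error is pooled with the 12 h and 24 h arrays, all set to the floor with a standard deviation of 0. It is thus too small to be read as measured precision, and the other probe set differed by -2.51 ± 0.61 at 3 h. The other probe set read 9.15 and 9.45 in vehicle C10, 9.51 and 9.67 in HAFTL and 7.17 and 6.40 at 3 h, and was at least 8.44-fold lower from 12 to 48 h. Both probe sets were lower than vehicle C10 at every time and higher in HAFTL, by 0.64 and 0.29. Cd2 and Cd244a therefore differed after 12 h, with Cd2 back at its 3 h level and Cd244a under the filter level, which was not tested.

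Other genes of the CD2 and SLAM family and their adaptors, 11 tested, were mostly lower at 3 h, although with spike-in scaling only 2 of them fell. At 3 h 8 fell and 1 rose, beside 27.3% and 20.9% of all genes. The counts were 7 and 1 at 12 h, when 28.7% of all genes fell and 22.3% rose, and 6 and 2 at 48 h, beside 38.2% and 24.2%. With spike-in scaling 3 fell and 1 rose at 12 h, and 3 fell and 2 rose at 48 h. The list medians were -0.82, -0.84 and -0.28, and with spike-in scaling -0.15, -0.12 and 0.28. Slamf6 fell by 2.10 ± 0.09 at 3 h, fell by 3.80 ± 0.09 at 12 h and fell by 2.25 ± 0.09 at 48 h (limma, Benjamini-Hochberg adjusted p = 4.9e-07 at 48 h), so it was also lowest at 12 h. Slamf7, with both arrays under the filter level at every time, was at least 4.30-fold lower. Slamf1 fell by 1.82 at 48 h and Ly9, the next gene after Cd244a on chromosome 1, by 1.04 ± 0.24 (limma, Benjamini-Hochberg adjusted p = 0.0055). With spike-in scaling the call of Ly9 was lost.

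Cd84, another SLAM receptor, went the other way. It read 9.37 and 9.08 in vehicle C10 and 10.81 and 10.93 at 48 h, and rose by 1.65 ± 0.15 (limma, Benjamini-Hochberg adjusted p = 3.9e-05). Cd48, which encodes the ligand of CD2 and CD244, read 10.93 and 10.89 in vehicle C10, 11.07 and 11.03 at 48 h and 9.23 and 8.53 in HAFTL. Cd48 fell at 12 h by 0.84 ± 0.22, a call lost with spike-in scaling, differed by 0.14 ± 0.22 at 48 h without passing the test, and fell by 2.03 ± 0.22 in HAFTL (limma, Benjamini-Hochberg adjusted p = 0.0014). The ligand and the 2 receptors thus had different courses in C10.

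**Figure D2:**
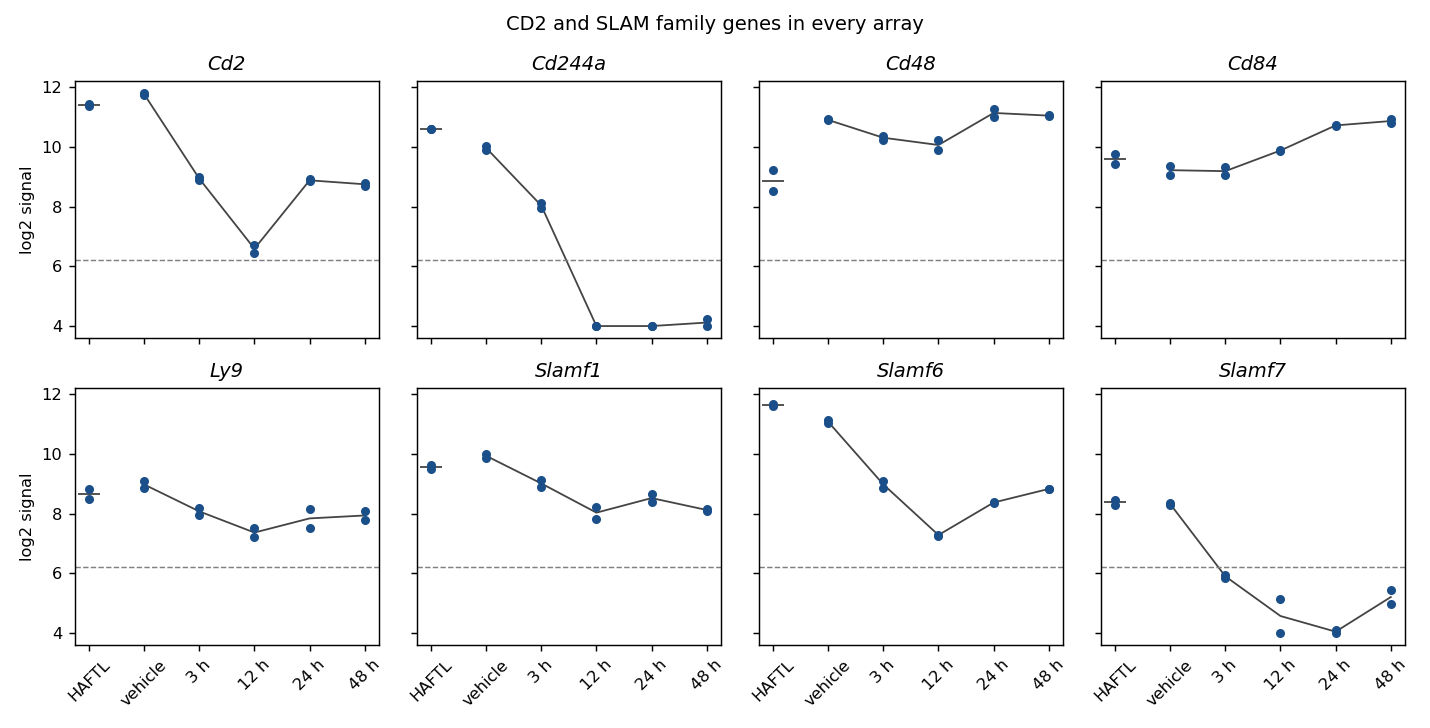
Log2 signal (y axis) of Cd2, Cd244a, their ligand gene Cd48 and related SLAM genes in each array of the 6 groups (x axis, evenly spaced), with points for arrays, lines through the C10 group means, a short bar for the HAFTL mean and a dashed line at the filter level of 6.22. Cd2 and Slamf6 were lowest at 12 h (differences from vehicle C10 of -5.18 and -3.80), Cd244a stayed under the dashed line from 12 h on, and Cd84 reached 10.81 and 10.93 at 48 h.

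Cd5 encodes a receptor with scavenger receptor cysteine-rich domains that lowers antigen receptor signalling and marks T cells and B-1 cells. Its log2 signal was 11.15 and 11.11 in vehicle C10 and 8.28 and 8.13 in HAFTL. After 3 h it was 8.70 and 8.87, after 12 h 8.13 and 8.25, after 24 h 10.01 and 9.94, and after 48 h 9.0 and 9.39. The vehicle arrays were above all others, and HAFTL and C10 at 12 h overlapped at the low end. The differences from vehicle C10 were -2.35, -2.94, -1.16 and -1.94 at the 4 times in order, each ± 0.14, or 7.70-fold lower at 12 h and 2.23-fold at 24 h. In HAFTL the signal was 7.62-fold lower, and Cd5 ranked 20 from the lowest of all genes tested. Set against HAFTL instead of vehicle C10, Cd5 was higher at 3, 24 and 48 h, by 0.59, 1.77 and 0.99.

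Cd6, the related receptor encoded next to Cd5 on chromosome 19, read 9.63 and 9.37 in vehicle C10 and 8.59 and 8.73 at 48 h. It fell by 0.84 ± 0.12 at 48 h (limma, Benjamini-Hochberg adjusted p = 0.00055) and differed by -0.12 ± 0.12 at 3 h without passing the test. With spike-in scaling its 48 h difference was -0.33 and did not pass. Vps37c, the gene on the other side of Cd5, rose by 0.80 ± 0.12 at 48 h. Cd5 and its neighbours were thus not alike in size or direction at 48 h.

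Cr2 encodes complement receptor CR2, and in the mouse also CR1, which bind fragments of C3 and lower the threshold of B cell activation. Its log2 signal was 10.19 and 10.43 in vehicle C10 and 10.003 and 9.93 in HAFTL. Both 3 h arrays read 8.94, the 12 h arrays 5.94 and 4.0, the 24 h arrays 6.05 and 5.86, and the 48 h arrays 5.17 and 4.0. All arrays from 12 h on lay under the filter level, where values have no order. The difference was -1.37 ± 0.59 at 3 h, or 2.59-fold, and the signal was at least 17.0-fold lower from 12 to 48 h. HAFTL differed by -0.34 ± 0.59, less than this pooled error. Its arrays lay below those of vehicle C10 without overlap, but overlapped them with spike-in scaling. The error takes in groups under the filter level, with standard deviations of 1.37 at 12 h and 0.83 at 48 h. Those of HAFTL and vehicle C10 were 0.05 and 0.17, so the error does not measure the spread of this comparison or of the one at 3 h.

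Complement receptors and regulators on cells, 11 tested, had few calls at 12 h and more higher than lower ones at 48 h. At 12 h 1 rose and 3 fell, beside 22.3% and 28.7% of all genes, and at 48 h 6 rose and 3 fell, beside 24.2% and 38.2%. The list medians were -0.05 and 0.67. The shares that fell were thus close to or under those of all genes. With spike-in scaling 1 rose and 1 fell at 12 h, and 6 rose and 1 fell at 48 h. C3ar1, the receptor for C3a, was at least 175-fold higher at 48 h and C5ar1, the receptor for C5a, at least 5.75-fold higher. Itgam and Itgax, which encode the alpha chains of complement receptors 3 and 4, were at least 8.84-fold and 4.65-fold higher. Itgam exceeded the filter level in 4 of the 12 arrays, those of 24 and 48 h. It thus passed the filter only through groups where it was high, and its call is no support for a change. Cr1l, the gene beside Cr2 that encodes the membrane regulator Crry, fell by 0.47 ± 0.08 at 48 h (limma, Benjamini-Hochberg adjusted p = 0.0014), which turned to 0.08 with spike-in scaling and did not pass the test.

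Cd24a encodes the heat-stable antigen, a small glycan-bearing protein anchored by lipid and a ligand of Siglecs. Its brightest probe set read 14.44 and 14.50 in vehicle C10 and 14.85 and 14.88 in HAFTL. The 3 h arrays read 13.86 and 13.85, those of 12 h 12.09 and 12.07, those of 24 h 11.36 and 11.27, and those of 48 h 9.90 and 9.75. No group overlapped another, and every later group was below the one before it. The differences were -0.61, -2.39, -3.15 and -4.65, each ± 0.07, which made the 48 h signal 25.1-fold lower. Only 13.2% of the 48 h difference was present at 3 h, where the direction turned to 0.21 with spike-in scaling, and 51.5% at 12 h. The other 2 probe sets differed by -4.48 and -4.50 at 48 h and by 0.92 and 0.77 in HAFTL, where the brightest one differed by 0.40. One of them is of the kind that may detect related transcripts.

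Among the Siglecs, lectins that bind sialic acid and include partners of CD24, 4 of 5 tested genes rose at 48 h and 1 fell, beside 24.2% and 38.2% of all genes, and with spike-in scaling the counts were also 4 and 1, of 6 tested. Cd22, the inhibitory Siglec of B cells, was the one that fell, and it fell by 2.61 ± 0.15 at 3 h and fell by 3.38 ± 0.15 at 48 h (limma, Benjamini-Hochberg adjusted p = 6.9e-07). Siglecg read 10.72 and 10.66 in vehicle C10, 8.67 and 8.77 at 3 h and 11.28 and 11.41 at 48 h. It fell by 1.97 ± 0.10 at 3 h and rose by 0.66 ± 0.10 at 48 h (limma, Benjamini-Hochberg adjusted p = 8e-04). Cd33 was at least 32.2-fold higher at 48 h and Siglec1, the sialoadhesin of macrophages, at least 19.9-fold higher. The vehicle arrays of both genes were under the filter level, so the count that rose is a description. Siglecf rose by 1.17 ± 0.37, with 1 of its 48 h arrays and both vehicle arrays under the filter level.

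Cd37 encodes a tetraspanin of lymphoid cells that organises other membrane proteins. Its brighter probe set read 14.03 in both vehicle arrays, 14.11 and 14.09 in HAFTL, 12.84 and 12.95 at 3 h and 10.30 and 10.48 at 12 h. It then read 11.71 and 11.81 at 24 h and 11.13 and 11.37 at 48 h. The arrays at 12 h were the lowest, 12.5-fold under vehicle C10, and the later groups lay between those of 3 h and 12 h. The second probe set read 12.11 and 12.02 in vehicle C10 and 12.27 and 12.04 in HAFTL. It read 9.32 and 9.13 after 3 h, 9.52 and 9.84 after 12 h, 10.36 and 10.27 after 24 h, and 9.67 and 9.87 after 48 h. It was lowest at 3 h, so the probe sets disagree on when Cd37 was lowest and on the size at 3 h (-1.14 ± 0.10 and -2.84 ± 0.14). Both were higher at 24 h than at 12 h, by 1.37 and 0.63. HAFTL differed by 0.07 ± 0.10 in the brighter probe set, which became -0.12 with median centring, and overlapped vehicle C10 in the other.

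The other tetraspanins, 16 tested, had 8 that fell, 1 that rose and 7 that did not pass at 3 h. At that time 27.3% of all genes fell and 20.9% rose. With spike-in scaling 1 of the list fell and 2 rose at 3 h, where the median of all genes also went from -0.06 to 0.63. At 48 h 2 fell and 5 rose, beside 38.2% and 24.2% of all genes, and with spike-in scaling limma called 3 higher and 0 lower (5 and 0 at an unadjusted p under 0.05). The list medians at 3 and 48 h were -0.51 and -0.07, and 0.32 and 0.59 with spike-in scaling. Tspan32, a tetraspanin of blood cells, fell by 2.25 at 3 h and by 1.14 at 48 h, the latter call lost with spike-in scaling. Cd82 fell by 1.18 ± 0.12 at 3 h (limma, Benjamini-Hochberg adjusted p = 0.00013), a call lost with spike-in scaling, and differed by -0.04 ± 0.12 at 48 h without passing the test. Tspan17 rose by 2.32, Cd151 by 1.74 and Tspan31 by 1.13 at 48 h.

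Spn encodes CD43, the large sialomucin that marks early B cells, T cells and myeloid cells. Its brighter probe set read 10.07 and 9.99 in vehicle C10, 10.45 and 10.42 in HAFTL and 9.46 and 9.63 at 3 h. It then read 11.13 and 11.28 after 12 h, 11.002 and 11.08 after 24 h, and 10.46 and 10.66 after 48 h. The 12 h and 24 h arrays were above all others, and the groups did not overlap. The differences were -0.49, 1.17, 1.01 and 0.53 at the 4 times and 0.40 in HAFTL, each ± 0.10, and the one at 3 h turned to 0.17 with spike-in scaling. The dimmer probe set was also higher at 12 and 24 h, by 0.85 and 0.70, but overlapped vehicle C10 at 3 h and 48 h.

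Other sialomucins and the proteins that tie them to actin, 9 tested, had 5 members that fell and 1 that rose at 3 h, beside 27.3% and 20.9% of all genes. At 48 h 2 fell and 5 rose, beside 38.2% and 24.2%. With spike-in scaling 2 fell and 1 rose at 3 h, and 0 fell and 5 rose at 48 h in limma (also 0 and 5 at an unadjusted p under 0.05). Selplg, the selectin ligand PSGL-1, read 12.11 and 12.12 in vehicle C10 and 8.75 and 8.65 at 3 h. It fell by 3.42 ± 0.07 at 3 h (limma, Benjamini-Hochberg adjusted p = 4.7e-07), fell by 2.33 at 12 h, and at 48 h was at 12.27 and 12.39, with array values above those of vehicle C10. Cd44, the hyaluronan receptor, rose at every time and by 2.43 ± 0.12 at 48 h (limma, Benjamini-Hochberg adjusted p = 1.2e-06). Cd164, another sialomucin, rose by 0.97 at 48 h, and Rdx and Ezr, which encode the linkers radixin and ezrin, fell by 1.17 and fell by 0.97, calls of both lost with spike-in scaling. At 12 h Spn was thus above vehicle C10 and Selplg below it.

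**Figure D3:**
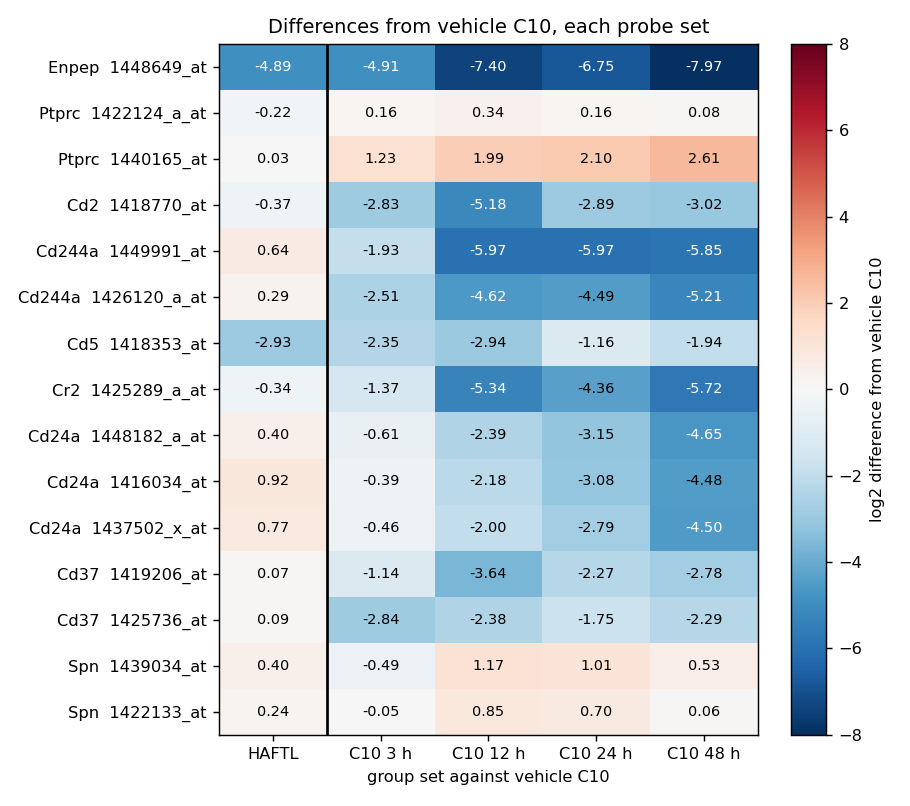
Log2 difference from vehicle C10 of each of the 15 probe sets (y axis) in HAFTL and in C10 after 3, 12, 24 and 48 h (x axis), as the number in each cell and as colour, blue for lower and red for higher, without errors. Cd2 and Cd5 were lowest at 12 h (-5.18 and -2.94) and Cd24a at 48 h (-4.65), and the 3 h values of Cd24a (-0.61) and Spn (-0.49) turned to 0.21 and 0.17 with spike-in scaling.

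The members differed in when they were lowest. Enpep, Cr2 and Cd244a were under the filter level from 12 h on. Cd2 and Cd5 were lowest at 12 h and were then higher by 2.29 and 1.79 at 24 h, and Cd24a went lower at each step. By the brightest probe set of each gene, 7 of the 9 genes were lower and 2 higher between 3 and 12 h, beside 36.1% and 31.2% of all genes. The second probe set of Cd37 was higher over that step, by 0.46 ± 0.14. Between 12 and 24 h, 3 were lower (Cd24a, Ptprc and Spn) and 4 higher (Enpep, Cd37, Cd2 and Cd5), beside 37.1% and 35.8%, and Enpep was under the filter level at both times. Between 24 and 48 h, 8 were lower, beside 37.3%, and Enpep and Cr2 among them were under the filter level at both times. Ptprc (-0.07 ± 0.07) and Cd2 (-0.13 ± 0.10), also among them, differed by about their error. The dimmer probe set of Ptprc went the other way at both of these later steps, by 0.12 ± 0.15 and 0.50 ± 0.15.

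In HAFTL, 5 members were lower than in vehicle C10 (Enpep, Cr2, Cd2, Cd5 and Ptprc) and 4 higher (Cd24a, Cd37, Cd244a and Spn), beside 31.0% and 29.4% of all genes. The median difference of the members was -0.22. Cd37, counted as higher at 0.07 ± 0.10, overlapped vehicle C10 on the deposited scale and with median centring or spike-in scaling. The second probe sets of Cd37 and Ptprc also overlapped vehicle C10. Enpep and Cd5 stood apart from the others in size, at -4.89 and -2.93, while the other 7 lay between -0.37 and 0.64. With spike-in scaling only Enpep and Cd5 remained lower. In these same 2 genes the HAFTL arrays overlapped those of C10 after estradiol, with Enpep at its 3 h level and Cd5 at its 12 h level.

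A wider list of B lineage surface genes, 25 tested and none of them members, gives the setting. The numbers that fell were 17, 18, 14 and 13 at the 4 times in order, and the numbers that rose 3, 1, 7 and 8. Of all genes, 27.3%, 28.7%, 33.3% and 38.2% fell at these times and 20.9%, 22.3%, 24.2% and 24.2% rose. The list medians were -1.16, -1.62, -0.82 and -0.84. With spike-in scaling 9, 11, 8 and 9 fell at 3, 12, 24 and 48 h, and 3, 3, 5 and 7 rose. In HAFTL 5 fell and 1 rose, beside 8.12% and 7.11% of all genes, and 3 fell without vehicle C10 replicate 1 or without replicate 2, and 2 with spike-in scaling. Among these HAFTL changes, Btla, Fcrla and Cd74 fell by 2.01, fell by 1.75 and fell by 1.33, the calls of Fcrla and Cd74 being lost with spike-in scaling. Ccr7, also counted as fallen, was at least 1.86-fold lower in HAFTL. It read 7.24 and 6.99 in vehicle C10 and lay at the floor of 4.0 in every other group. It thus passed the filter only through vehicle C10, so its calls as lower in HAFTL and at the 4 times are no support for a change.

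Within that list, Il7r, the receptor for interleukin 7 on pre-B cells, read 13.66 and 13.53 in vehicle C10 and 9.10 and 9.05 at 48 h. It fell by 2.85 ± 0.11 at 3 h, fell by 5.97 ± 0.11 at 24 h and fell by 4.52 ± 0.11 at 48 h (limma, Benjamini-Hochberg adjusted p = 5.3e-08 at 48 h). Fcrl1, an Fc receptor-like protein of B cells, fell by 5.18 ± 0.26 at 48 h. In the other direction, Cd86 and Cd80, which encode costimulatory ligands shared by activated B cells and macrophages, were at least 13.9-fold and 7.66-fold higher at 48 h. Cd79b, the signalling chain of the B cell receptor, fell by 3.64 ± 0.08 at 3 h and fell by 1.67 ± 0.08 at 48 h. Cd72, a coreceptor, fell by 3.86 ± 0.09 at 12 h and fell by 1.12 ± 0.09 at 48 h. Cd79b and Cd72 were thus closer to vehicle C10 at 48 h than at 12 h, as Cd2 was, and with spike-in scaling neither passed the test at 48 h. Bst1, the paralog of Cd38, fell by 2.84 ± 0.14 at 3 h and rose by 1.14 ± 0.14 at 48 h (limma, Benjamini-Hochberg adjusted p = 0.00022), and says nothing of Cd38 itself. Of the 8 tested genes around NAD ectoenzymes, among them Bst1, 2 rose (Bst1, and Nampt by 1.08) and 1 fell (Parp1, which fell by 1.01) at 48 h. Of all genes, 24.2% rose and 38.2% fell at that time, so the list's share that rose was near that of all genes and its share that fell was under it. With spike-in scaling 2 rose and 0 fell in limma (4 and 0 at an unadjusted p under 0.05). Of 4 tested genes of a list around the scavenger receptor cysteine-rich family, to which CD5 belongs, 3 rose at 48 h and 1 fell, Cd6. This stood beside the same 24.2% and 38.2% of all genes. Those that rose were Msr1 (at least 46.5-fold higher), Lgals3bp (by 4.55) and Cd36 (by 2.17). Cd36 was on this list but is not of that family. With spike-in scaling 3 rose and 0 fell (also 3 and 0 at an unadjusted p under 0.05).

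**Figure D4:**
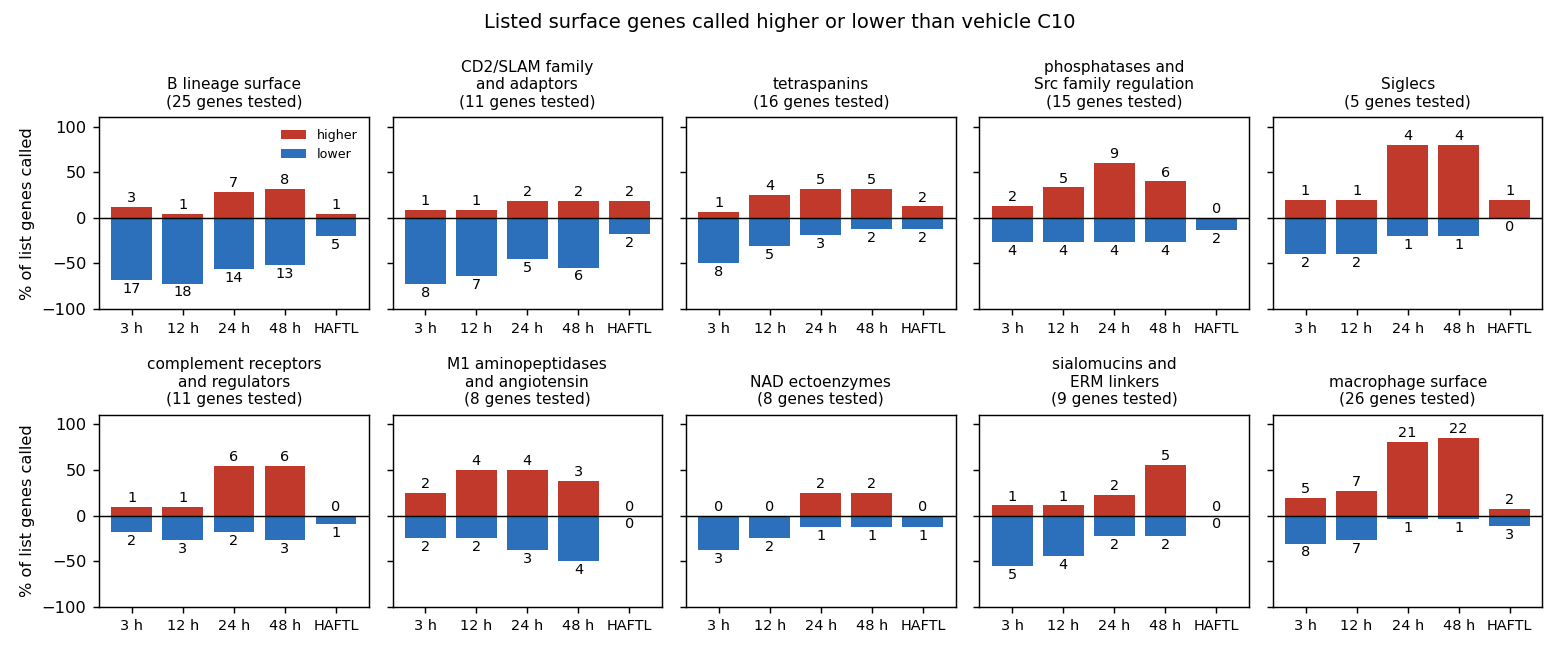
Share in percent of the tested genes of 10 gene lists that passed the limma test as higher (red, upward) or lower (blue, downward) than vehicle C10 at each time and in HAFTL (x axis), with the number of genes at each bar. Of 25 B lineage surface genes 17 fell at 3 h and 13 at 48 h (9 at both times with spike-in scaling). Of 26 macrophage surface genes 22 rose at 48 h, among them genes with both vehicle arrays under the filter level.

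Markers of other cell types were read beside these genes. Of 26 macrophage surface genes, 5 rose and 8 fell at 3 h, beside 20.9% and 27.3% of all genes, with a median of -0.17. At 48 h 22 rose and 1 fell, beside 24.2% and 38.2%, with a median of 4.15. With spike-in scaling 6 rose and 1 fell at 3 h, with a median of 0.44, beside a median of 0.63 over all genes. At 48 h 24 rose and 0 fell with that scaling in limma (also 24 and 0 at an unadjusted p under 0.05). Cd14, Fcgr3, Clec4d and Clec4e were at least 440-fold, 186-fold, 91.7-fold and 37.9-fold higher at 48 h. The vehicle arrays of each were under the filter level. The 22 that rose thus include genes that passed the filter through groups where they were high, so that count is a description. Enpep was therefore low at 3 h, when 5 of these 26 genes had risen (6 with spike-in scaling). Several members are also T or NK cell antigens (Cd2, Cd5 and Cd244a). Of the 8 T and NK cell markers measured, 3 exceeded the filter level in at least 1 array, and the summed signal was 235 to 407 over all 12 arrays. In vehicle C10 that sum was 294 and 334. Cd3e exceeded the level in 1 of the 12 arrays, and Cd8a in 10 of them, with 6.46 and 6.65 in vehicle C10. Of the 7 tested genes of a longer T and NK cell list, 1 was called higher at 48 h, Klrk1, as 1 was with spike-in scaling. Klrk1 was at least 2.40-fold higher, but it exceeded the filter level in 2 of the 12 arrays, both at 48 h. It thus passed the filter only through the group where it was high, and its call is no support for a change. Of 5 stromal genes 2 rose at 48 h, Fn1 (at least 22.4-fold higher) and Pecam1 (by 0.54), and 1 with spike-in scaling. The 1 erythroid gene tested differed by -0.48 without passing the test. The part of these cell types in the results was not tested.

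Likeness was measured as the Pearson correlation of log2 signals over the 12 arrays, which share the 6 groups. It is a description with no p. The genes most like Enpep were Syde2 (0.976), Epb41l4b (0.966) and Wapl (0.964). Those most like Cd2 were Ddc (0.993), Pnp (0.993) and Ptprs (0.991), and for Cd244a they were Gfra1 (0.994), Trib2 (0.993) and Ptprcap (0.991). Cd24a was most like Park7 (0.994), Suclg2 (0.993) and Nsg2 (0.993). Cd5 had the least close matches after Mcts1 (0.952), with Dst at 0.903 and Tmem175 at 0.889. The closest for Cd37, Cr2 and Spn were Sorcs2 (0.986), Mrpl19 (0.983) and Fbxo9 (0.972).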

How the data were processed

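The authors deposited 1 table of linear signal intensity per probe set for 12 arrays, with the method of summarising or scaling not given in the sources used here. Groups came from the sample titles in the labels. Log2 values were quantile normalised over all 45101 probe sets, 64 control probe sets were dropped, and a floor of 16 was placed on signals, under which 21.2% to 24.6% of probe sets lay on each array. Probe sets were named from the platform annotation, with symbols checked against RefSeq (GRCm38.p6), where 34741 of 34945 with a single gene matched. The probe set with the highest mean stood for a gene, so probe sets of a gene can disagree. A gene was tested if it exceeded the median of all values in at least 2 arrays.

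limma (3.58.1) in R (4.3.3) was fitted to all 12 arrays with 1 mean per group, moderated, two-sided, and with Benjamini-Hochberg adjustment over 11696 genes at 0.05. The scripts were tested on simulated data. The members and the 14 gene lists were chosen with earlier results of these data known. Named genes were the members, for each list up to 4 called genes that changed most at 48 h, markers, and the 3 genes most like each member that ranged by over 1 on the log2 scale. Neighbouring genes and Cd48, Cd82, Selplg, Siglecg, Cd79b and Cd72 were named after their values were seen. Other scalings, floors, filters and fits were tried. The number of arrays limits the precision.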

Additional observations from a re-analysis of the deposited data

How the results depend on the processing

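With spike-in scaling, Cd24a and Spn at 3 h turned to 0.21 and 0.17, the antigen genes lower than vehicle C10 numbered 5 at 3 h and 2 in HAFTL, and the B lineage surface genes that fell numbered 9, 11 and 8 at 3, 12 and 24 h and 2 in HAFTL. Median centring turned Cd37 in HAFTL to -0.12. With HAFTL as the control, Cd5 turned to 0.59, 1.77 and 0.99 at 3, 24 and 48 h and Cd6 at 48 h to 0.035, and 2 antigen genes were higher at 3 h in place of 1. Leaving out each array in turn gave 14 to 18, 17 to 20, 13 to 14 and 12 to 13 fallen B lineage surface genes at 3, 12, 24 and 48 h, and 3 to 6 in HAFTL, and left the counts of antigen genes as they were. The cause of these changes was not tested. Arrays of the same number did not deviate together with those of vehicle C10 (correlations of -0.01 to 0.02), and the fit used no pairing. This check cannot exclude that samples of the same number were handled together, on which the labels are silent. With the number as a replicate block, the genes called went from 5646 to 5491 at 3 h and from 1782 to 1606 in HAFTL. Signals near the floor limit what can be said of Enpep, Cr2 and Cd244a after 3 h.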
